A study of Drosophila melanogaster with 4 samples.

Results

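The Rab GTPases of Drosophila melanogaster were followed in RNA recovered with the poly(A)-binding protein (PABP) of intestinal progenitor cells and in total RNA of the same kind of whole-fly extract. Members were the gene rows whose symbol is Rab or RabX followed only by a number, which gave 28 of 17806 named genes. Whole adult flies, 200 per sample with 100 of each sex, had been powdered, exposed to ultraviolet light to fix proteins to the RNA they touch, and lysed. The 2 PABP IP libraries hold RNA recovered on FLAG beads, and the labels assign them to intestinal progenitors, which divide to replace worn-out gut cells. The 2 input libraries were made from the extract itself, with no precipitation, and are labelled as RNA from all cells of the fly. Both groups thus come from pooled whole animals, and the labels give no strain, genotype, driver of a tagged PABP or age in days for either. No control precipitation was analysed here, so expression in progenitors, binding by PABP and background on the beads cannot be told apart. In such bulk extracts fewer cells of a type and less RNA per cell cannot be told apart either. No label states that the replicates were independent batches of flies, and the p-values then speak only of the scatter among these 4 libraries, some or all of which may be technical.

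Rab proteins are small GTPases that give the membranes of a cell their identity. Each is loaded with GTP on its membrane by an activator (a GEF), then binds effectors such as tethers and motors that move, dock and fuse vesicles, and is switched off by an inactivator (a GAP), after which the carrier GDI returns it to the cytosol. Some Rabs serve steps that every cell uses, whereas others are known mainly from neurons, from pigment cells or from single developmental processes. The members were therefore read in 3 classes set from general knowledge of fly Rabs: 14 ubiquitous ones, 4 neuronal ones (Rab3, Rab26, Rab27 and RabX4) and 10 that are restricted or less studied. Earlier results of these data were known when the classes were set. The placing of Rab18, Rab21, Rab35 and Rab39 among the ubiquitous Rabs is uncertain.

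The IP libraries held 8987420 and 10761349 counts on named genes and the input libraries 2464629 and 3346231, so low values are least precise in the input. Levels are given as CPM, which relate each count to its library size after scaling with TMM (the trimmed mean of M-values), and fold changes come from edgeR's quasi-likelihood test across 9989 genes with Benjamini-Hochberg adjusted p below 0.05. Fold changes run from IP over input throughout. The transcript of pAbp, which encodes the precipitated protein, had 13420 and 13130 CPM in PABP IP 1 and 2, against 1387 and 1234 CPM in input 1 and 2. All 13 intestinal progenitor markers listed were higher in the IP, beside 37.1% of all tested genes. Among them esg had a log2 fold change of 8.09 and Dl one of 5.33. Of 10 enterocyte markers 7 were lower and 3 higher. Of 7 germline and testis markers 6 were lower, beside 38.8% of all tested genes.

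Most Rab transcripts were higher in the PABP IP. Of the 28 members 26 could be tested, and 20 of these were higher (76.9%), beside 37.1% of all tested genes, whereas 3 were lower, beside 38.8% of all tested genes. The exceptions that were lower were Rab3, Rab23 and Rab27, and Rab18, Rab19 and Rab26 were not called. The median log2 fold change of the tested members was 1.49, against -0.10 over all tested genes. RabX1 had the highest value among the tested members (4.68) and Rab27 the lowest (-2.0). Each of the 26 lay above the count filter in all 4 libraries, so none entered the test through 1 group alone. In 21 tested members both IP libraries lay above both input libraries (42.3% of all tested genes did so), and in 3 both lay below (46.3% of all tested genes). By class, 13 of 14 ubiquitous Rabs were higher and none lower, 1 of 4 neuronal Rabs was higher and 2 lower, and of 8 tested Rabs in the remaining class 6 were higher and 1 lower. Class medians of the log2 fold change were 1.60, -0.12 and 1.03 in this order. No test of a difference between classes was made, since each holds a few genes chosen by hand.

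**Figure D1:**
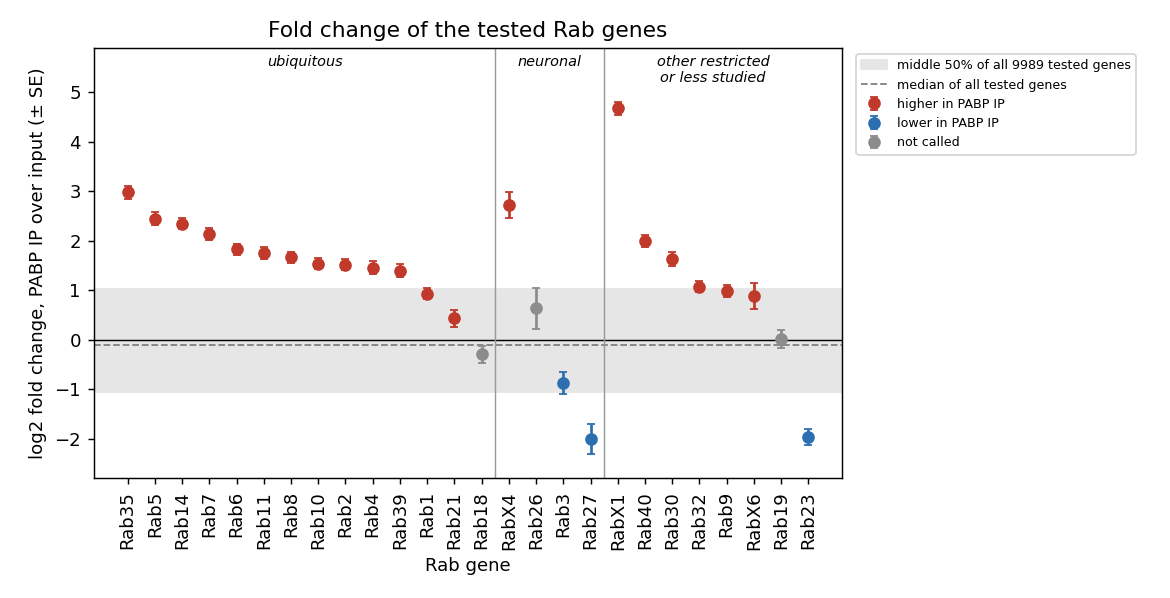
Log2 fold change of PABP IP over input (vertical axis, bars give the SE from edgeR) for each of the 26 tested Rab genes, split into the 3 classes and ordered by size within each. Red marks genes called higher in the IP, blue those called lower and grey those not called, and the grey band holds the middle 50% of all 9989 tested genes (-1.06 to 1.02, median -0.10). The 3 blue points are Rab3, Rab27 and Rab23, and RabX1 stands highest at 4.68.

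Rab1, Rab2, Rab6 and Rab30, of the early secretory route and the Golgi, were higher in the IP. Rab1, which acts between the endoplasmic reticulum and the Golgi, had 178 and 202 CPM in PABP IP 1 and 2, against 109 and 91.6 CPM in input 1 and 2 (1.91-fold, log2 0.93 ± 0.11 SE, adjusted p = 1.00e-06), a call lost with library size alone (log2 0.076). Rab2, which acts at the Golgi and in the fusion of autophagosomes with lysosomes in flies, had 180.4 and 205 CPM in PABP IP 1 and 2, against 69.9 and 65.3 CPM in input 1 and 2 (log2 1.52 ± 0.11 SE, adjusted p = 1.33e-09). The trans-Golgi Rab Rab6 had 189 and 199 CPM in PABP IP 1 and 2, against 59.5 and 50.6 CPM in input 1 and 2 (log2 1.83 ± 0.11 SE, adjusted p = 1.43e-10). The IP and input libraries did not overlap for any of these genes, and the change of Rab1 was the smallest of them. An antisense RNA gene lies within Rab1, as in Rab26, and with no strand stated reads of gene and antisense RNA cannot be told apart. Noncoding RNA genes also lie within Rab14 and Rab32. Rab30, another Golgi Rab, had 86.4 and 106 CPM in the IP, against 29.0 and 32.9 CPM in the input (log2 1.63 ± 0.14 SE, adjusted p = 9.06e-09). The Rabs of transport to the cell surface behaved much like Rab2 in size: Rab8, an exocytic Rab, averaged 266 ± 29.8 CPM in the IP and 84.1 ± 6.61 CPM in the input (SD, n = 2 each; log2 1.67 ± 0.11 SE, edgeR adjusted p = 5.72e-10). Rab10, which directs basement membrane secretion in fly follicle cells, averaged 411 ± 23.6 CPM in the IP and 142 ± 3.21 CPM in the input (SD, n = 2 each; log2 1.54 ± 0.11 SE, edgeR adjusted p = 6.95e-10).

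Rabs of endocytosis and recycling included the larger rises of the ubiquitous class. Rab35, which acts in recycling from endosomes and in actin control, had 318 and 388 CPM in PABP IP 1 and 2, against 47.0 and 42.6 CPM in input 1 and 2. That is 7.90-fold higher (log2 2.98 ± 0.13 SE, edgeR adjusted p = 1.69e-12), the largest change among the 14 ubiquitous Rabs. Rab5, the organiser of early endosomes, had 490.4 and 609 CPM in PABP IP 1 and 2, against 105 and 97.3 CPM in input 1 and 2 (5.45-fold, log2 2.45 ± 0.13 SE, adjusted p = 1.5e-11). Rab14, which takes part in phagosome maturation in flies, had 222 and 252 CPM in PABP IP 1 and 2, against 45.2 and 47.7 CPM in input 1 and 2 (5.09-fold, log2 2.35 ± 0.12 SE, adjusted p = 7.34e-12). For all of these the lower IP library was more than 4 times the higher input library. The Rabs of recycling endosomes had smaller fold changes: Rab11, the main Rab of that compartment, had 539 and 629 CPM in PABP IP 1 and 2, against 172 and 174 CPM in input 1 and 2 (log2 1.75 ± 0.12 SE, adjusted p = 3.56e-10), and Rab4, of the fast recycling route, had 128 and 144 CPM in the IP, against 55.2 and 44.4 CPM in the input (log2 1.46 ± 0.12 SE, adjusted p = 9.10e-09). Rab4 overlaps its neighbour Dcr-2 in part, which had a log2 fold change of 1.93, and reads from the shared stretch cannot be assigned with certainty.

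The smallest call of the class was that of Rab21, an endosomal Rab linked to integrin traffic. It had 28.1 and 23.4 CPM in PABP IP 1 and 2, against 17.7 and 20.1 CPM in input 1 and 2 (log2 0.43 ± 0.18 SE, adjusted p = 0.0356). This call was lost without PABP IP 1 (0.32), without input 1 (0.35) and without input 2 (0.52), and in DESeq2 (0.51). Rab18, known from lipid droplets in mammals, was the one ubiquitous member not called, with 23.0 and 29.0 CPM in PABP IP 1 and 2, against 26.6 and 36.4 CPM in input 1 and 2 (log2 -0.29 ± 0.18 SE, adjusted p = 0.139). Its IP and input libraries overlapped. It was called lower without PABP IP 2 (-0.49) and without input 1 (-0.49).

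Late endosomal and lysosomal Rabs were higher as well. Rab7, which brings late endosomes to fusion with lysosomes, had 528 and 643 CPM in PABP IP 1 and 2, against 144 and 123 CPM in input 1 and 2 (4.40-fold, log2 2.14 ± 0.13 SE, adjusted p = 9.31e-11). Rab39, which acts with lysosomal tethers in flies, had 74.0 and 77.8 CPM in the IP, against 30.5 and 27.4 CPM in the input (log2 1.40 ± 0.13 SE, adjusted p = 2.82e-08). Rab9, known in mammals for return from late endosomes to the Golgi, had 84.4 and 76.1 CPM in the IP, against 44.0 and 37.5 CPM in the input (log2 0.99 ± 0.13 SE, adjusted p = 1.99e-06). The fold change of Rab7 was the largest of these, and the IP libraries of all lay above both inputs.

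**Figure D2:**
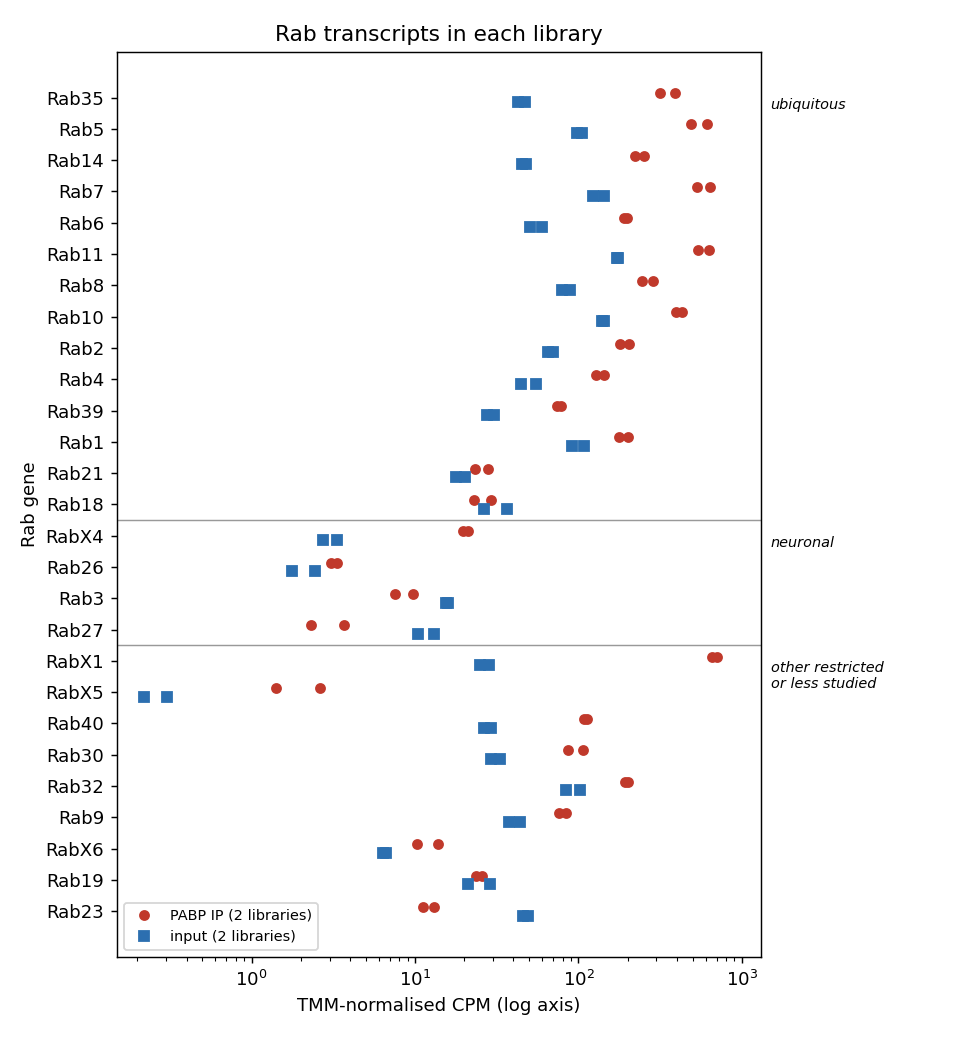
TMM-normalised CPM (horizontal axis, logarithmic) of the 27 Rab genes with at least 1 count, one row per gene, with the 2 PABP IP libraries as red circles and the 2 input libraries as blue squares; within a class genes run by the ratio of group means. RabX1 lies at the right-hand edge in the IP (652 and 705 CPM) and beside Rab40 and Rab39 in the input, while Rab23, Rab3 and Rab27 have their IP circles to the left of their input squares. RabX2, at 0 counts in every library, has no point.

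RabX1, a Rab of insects that acts at endosomes in fly epithelia, stood apart from every other member in the size of its change. It had 4455 and 5522 counts in the IP libraries and 93 and 113 in the input libraries, which is 652 and 705 CPM in PABP IP 1 and 2, against 28.4 and 24.9 CPM in input 1 and 2. The IP was 25.6-fold higher (log2 4.68 ± 0.14 SE, edgeR adjusted p = 2.98e-14), and only 89 of the 9989 tested genes had a higher fold change. The next member, Rab35, was 7.90-fold higher. RabX1 overlaps no other gene in the RefSeq table, so its counts are not shared with a neighbour. In shares of the family, which do not depend on how the libraries are scaled, RabX1 took 13.7% and 13.1% of Rab counts in the IP libraries and 1.97% and 1.82% in the input libraries. The exact 95% intervals of these shares were 13.4% to 14.1% and 12.8% to 13.4% in the IP, against 1.59% to 2.41% and 1.5% to 2.18% in the input, and cover counting error only.

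The make-up of the family's counts differed between IP and input for several other members, too. Rab35 took 6.68% and 7.18% of Rab counts in the IP libraries and 3.26% and 3.10% in the input libraries, and Rab5 took 10.3% and 11.3% of Rab counts in the IP libraries and 7.26% and 7.09% in the input libraries. Rab1 took 3.75% and 3.73% of Rab counts in the IP libraries and 7.53% and 6.67% in the input libraries, a smaller part in the IP although its CPM was higher there. Rab23 took 0.234% and 0.241% of Rab counts in the IP libraries and 3.20% and 3.55% in the input libraries. Rab11 kept a similar part, with 11.3% and 11.7% of Rab counts in the IP libraries and 12% and 12.7% in the input libraries. The 14 ubiquitous Rabs together held 74.4% and 76.3% of Rab counts in the IP libraries and 77.3% and 75.7% in the input libraries, so the ranges of the groups overlapped. The 4 neuronal Rabs held 0.761% and 0.632% in the IP libraries and 2.18% and 2.44% in the input libraries. The family as a whole made up 0.361% and 0.393% of all counts in the IP libraries and 0.192% and 0.186% in the input libraries.

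**Figure D3:**
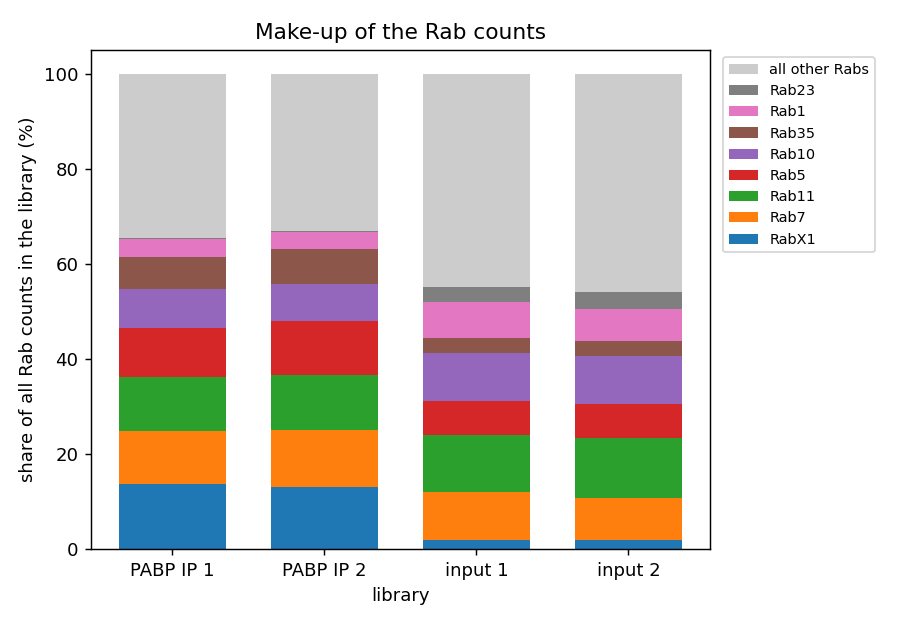
Share of all Rab counts (vertical axis, in %) in each of the 4 libraries, with 8 named genes as coloured segments from RabX1 at the bottom to Rab23 at the top and the other Rabs in grey. The RabX1 segment is 13.7% and 13.1% high in the PABP IP libraries and 1.97% and 1.82% in the input libraries; Rab23 is visible only in the input (3.20% and 3.55%).

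The neuronal Rabs moved in different directions. Rab27, a Rab of regulated secretion, had 3.66 and 2.30 CPM in PABP IP 1 and 2, against 10.4 and 13.0 CPM in input 1 and 2 (25 and 18 counts in the IP libraries and 34 and 59 in the input libraries), which is a log2 change of -2.0 ± 0.31 SE (adjusted p = 1.55e-05). Rab3, the synaptic vesicle Rab that shapes the make-up of active zones in flies, had 9.67 and 7.53 CPM in PABP IP 1 and 2, against 15.9 and 15.5 CPM in input 1 and 2 (log2 -0.87 ± 0.23 SE, adjusted p = 0.00246). In both, each IP library lay below each input library. The gene CAH13 lies within Rab3. Rab26, known in mammals from synaptic vesicles and their autophagy, had 21 and 26 counts in the IP libraries and 8 and 8 in the input libraries and was not called (log2 0.63 ± 0.41 SE, adjusted p = 0.171). RabX4, a fly Rab found mainly in neurons, went the other way, with 135 and 164 counts in the IP libraries and 9 and 15 in the input libraries, or 19.8 and 20.9 CPM in PABP IP 1 and 2, against 2.75 and 3.31 CPM in input 1 and 2 (6.60-fold, log2 2.72 ± 0.27 SE, adjusted p = 6.83e-08). It overlaps its neighbour Kaz in part, and no counts under that name were available to set beside it. Summed over the 4 genes the level was 36.2 and 34.1 CPM in PABP IP 1 and 2, against 31.4 and 33.6 CPM in input 1 and 2, with RabX4 higher in the IP and Rab3 and Rab27 lower.

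Neuron markers also moved in both directions. Of 13 listed, 11 were tested, 2 were higher (Csp and Snap25) and 5 lower (37.1% and 38.8% of all tested genes), with a median log2 fold change of -0.47. Their summed level was 777 and 914 CPM in PABP IP 1 and 2, against 617 and 544 CPM in input 1 and 2. Csp held the largest part of this sum, with 409.3 and 466.5 CPM in PABP IP 1 and 2, against 113.8 and 99.99 CPM in input 1 and 2. The vesicle fusion gene nSyb had a log2 fold change of -1.14 and the calcium sensor gene Syt1 one of 0.063, which was not called. The pan-neuronal gene elav was close to 0, with 1 count and 0 counts in PABP IP 1 and 2, against 1 count each in input 1 and 2, and Syx1A had none. Syx1A lies wholly inside another gene, and overlap was not checked for elav. A low level of either RNA therefore cannot be read from these counts. Of 12 enteroendocrine markers, genes of the hormone cells of the gut, 2 were higher and 4 lower, with 38.8% of all tested genes lower (median -0.10; summed level 175 and 192 CPM in PABP IP 1 and 2, against 148 and 139 CPM in input 1 and 2). The part of these cells in the changes of the neuronal Rabs was not tested.

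Rab23 was the only non-neuronal member called lower. This Rab, which acts in planar cell polarity of the fly wing, had 76 and 102 counts in the IP libraries and 151 and 221 in the input libraries, or 11.1 and 13.0 CPM in PABP IP 1 and 2, against 46.1 and 48.8 CPM in input 1 and 2. The input was 3.92-fold above the IP (log2 -1.97 ± 0.16 SE, adjusted p = 5.03e-09), and the 2 replicates of each group lay close together. Of 7 germline and testis markers 6 were lower, beside 38.8% of all tested genes (median -2.06; summed level 169 and 167 CPM in PABP IP 1 and 2, against 825 and 807 CPM in input 1 and 2). Enterocyte markers had a median of -1.66, with 3 of 10 higher and 7 lower (1154 and 909 CPM in PABP IP 1 and 2, against 3216 and 3344 CPM in input 1 and 2). Their part in the Rab23 result was not tested.

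The other restricted or less studied Rabs were mostly higher. Rab40, whose relatives in mammals work with ubiquitin ligases, had 108 and 113 CPM in PABP IP 1 and 2, against 29.3 and 26.3 CPM in input 1 and 2 (4.01-fold, log2 2.0 ± 0.12 SE, adjusted p = 1.45e-10). Rab32, encoded by the gene long known as lightoid and needed for eye pigment granules, had 202 and 193 CPM in PABP IP 1 and 2, against 84.2 and 103 CPM in input 1 and 2 (log2 1.07 ± 0.11 SE, adjusted p = 1.36e-07). Both had IP libraries clear of the input. Beside Rab32, 4 of 5 tested eye and pigment markers were lower and 1, the pigment transporter gene bw, was higher (median -2.46), beside 38.8% of all tested genes lower and 37.1% higher. The list of 8 summed to 301 and 274 CPM in PABP IP 1 and 2, against 1281 and 1353 CPM in input 1 and 2, with Arr2, w and st at 0 counts in all libraries. The part of eye RNA in the Rab32 value was not tested.

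RabX6 had 10.3 and 13.8 CPM in PABP IP 1 and 2, against 6.41 and 6.62 CPM in input 1 and 2 (log2 0.89 ± 0.27 SE, adjusted p = 0.00650), a call lost without PABP IP 2 (0.64), with upper-quartile factors (0.28), with the authors' size factors (0.39) and with library size alone (0.030). It overlaps Vti1a in part, which had a log2 fold change of 0.92. Rab19 had 23.6 and 25.8 CPM in PABP IP 1 and 2, against 28.7 and 21.0 CPM in input 1 and 2, so that its groups overlapped (log2 0.016 ± 0.18 SE, adjusted p = 0.938), and it shares a stretch with Arl5, whose log2 fold change was 1.38. RabX5 was too low to be tested, with 18 and 11 counts in the IP libraries and 1 and 1 in the input libraries. The ratio of its summed counts, scaled by library, was 7.72 with an exact 95% counting interval of 1.95 to 66.8. RabX2 had 0 counts in all 4 libraries, which allows up to 0.205 CPM in the IP and 0.384 CPM in the input at 3 counts over a group. It lies wholly inside CG32683, and 6 genes of the lists used here that had 0 counts everywhere (sky, dor, Syx1A, Arr2, w and st) also lie wholly inside another gene. An absence of RabX2 RNA therefore cannot be read from these counts. Of 5 further rows outside the naming rule, which carry letters after Rab9, 1 count was recorded for Rab9D in PABP IP 2 and none for the others.

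How far the rises held depended on the zero point of the comparison. Against a log2 fold change of 1 rather than 0, 15 members were higher (21.5% of all tested genes were) and 2 lower, Rab23 and Rab27 (15.9% of all tested genes). Rab1, Rab9, Rab21, Rab32 and RabX6 were the risers that did not pass this bar. With library size alone in place of TMM, 15 members were higher and 6 lower, so that 71.4% of the Rab calls were higher in place of 87.0%; of all tested genes 22.1% were then higher and 63.5% lower, and their median log2 fold change moved to -0.95. Rab9 (0.13) and Rab32 (0.22) were among the members that were then no longer called. The same 15 members were higher under all 5 scalings tried: Rab2, Rab4, Rab5, Rab6, Rab7, Rab8, Rab10, Rab11, Rab14, Rab30, Rab35, Rab39, Rab40, RabX1 and RabX4. Rab3, Rab23 and Rab27 were lower under all 5. Rab21 was the one member higher with TMM and lower with another scaling (library size alone, log2 -0.42, adjusted p = 0.0451). Rab18 and Rab19 were lower with library size alone, and also with upper-quartile factors (18 Rabs higher and 5 lower; 25.8% and 57.3% of all tested genes) and with the authors' size factors (18 higher and 5 lower; 27.5% and 53.9%).

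**Figure D4:**
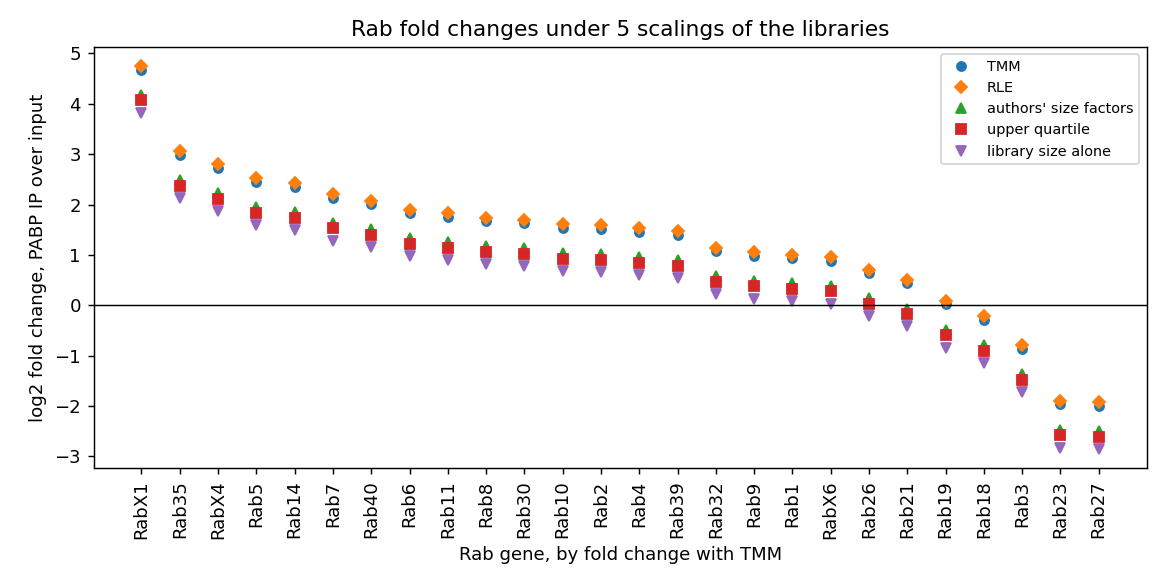
Log2 fold change of PABP IP over input (vertical axis) for the 26 tested Rab genes, ordered by their value with TMM, under 5 scalings of the libraries (one marker shape each). Changing the scaling shifts every gene by nearly the same amount, so the order stays alike, and the genes near 0 (Rab26, Rab21 and Rab19 among them) cross the zero line.

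The authors' deposited table, made with DESeq2, holds 27 of the members. Of these, 17 were higher in the authors' deposited table (21.3% of its 11295 genes with an adjusted p were) and 5 lower (38.5% of these genes), namely Rab3, Rab18, Rab19, Rab23 and Rab27. That table gives RabX1 a log2 fold change of 4.18 ± 0.18 SE in the authors' deposited values, Rab35 one of 2.48 ± 0.19 SE and Rab27 one of -2.48 ± 0.54 SE. Rab1, called higher here, has a log2 change of 0.43 in the authors' deposited table (adjusted p = 0.0516), and Rab21 has -0.061 (adjusted p = 0.868) and RabX6 has 0.39 (adjusted p = 0.351) there. Rab19 and Rab21 were the members whose sign differed between the authors' deposited table and the test used here.

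Genes that load, activate, switch off or read Rabs moved in both directions. Their counts with TMM are to be read beside the 37.1% of all tested genes that were higher and the 38.8% that were lower. Among 4 genes of Rab carriers and prenylation, 3 were higher and none lower, with a median log2 fold change of 0.42. These counts became 1 higher and 3 lower after scaling by library size only, beside 22.1% and 63.5% of all tested genes. Rep, the escort protein that presents new Rabs for prenylation, was higher by 1.57 ± 0.17 SE on the log2 scale (adjusted p = 2.52e-07), while Gdi, which carries Rabs through the cytosol, differed by only 0.33 ± 0.11 SE (adjusted p = 0.00997). Gdi lost its call without PABP IP 2 (0.28) or input 2 (0.28), and its sign turned with library size alone (-0.52). The prenylation subunit gene listed as CG12007, RabGGTa in RefSeq, changed by 0.52 ± 0.14 SE, and it turned to -0.34 with library size alone.

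Of 13 Rab activators 5 were higher, a share near that of all tested genes (37.1%), and 3 were lower, with a median of 0.0043. Scaled by library size only, 2 were higher and 8 lower, near the 22.1% and 63.5% of all tested genes at that scaling. Crag, an activator of Rab10 in fly epithelia, averaged 1491 ± 81.1 CPM in the IP and 148 ± 9.65 CPM in the input (SD, n = 2 each; log2 3.33 ± 0.13 SE, edgeR adjusted p = 6.76e-13). This was larger than the change of Rab10 itself (1.54). The activator gene strat, known to act on Rab8, was higher by 1.65 ± 0.16 SE, pcs, an activator of Rab11, by 0.97 ± 0.15 SE, and ca, which works with Rab32 in eye pigment granules, by 0.80 ± 0.10 SE. Gapvd1, an activator of Rab5, was lower (log2 -0.57 ± 0.10 SE), as was Ccz1, a subunit of the activator of Rab7 (log2 -0.70 ± 0.21 SE). Ccz1 lost its call in DESeq2 (-0.63). So Rab5 and Rab7 were higher in the IP while these activator genes were lower. The Rab5 activator gene spri was lower by a narrow margin (log2 -0.25 ± 0.11 SE, adjusted p = 0.0473), a call lost in DESeq2 (-0.17), limma-voom (-0.24) and the fit with replicate number as a block (-0.24, adjusted p = 0.0935), and on leaving out either IP library (-0.22 and -0.26) or input 2 (-0.15).

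Of 13 tested Rab inactivators 8 were higher and 3 lower (37.1% and 38.8% of all tested genes), with a median of 1.09. Scaled by library size only, 4 were higher and 5 lower, beside 22.1% and 63.5% of all tested genes. The TBC-domain genes GAPcenA, RN-tre and wkd had log2 fold changes of 2.68 ± 0.11, 2.58 ± 0.12 and 2.14 ± 0.11 SE, and Evi5, which acts on Rab11 in fly border cells, had one of 1.67 ± 0.12 SE. The genes plx (log2 -0.94 ± 0.12 SE), TBC1D5 (log2 -0.61 ± 0.14 SE) and Rab3-GAP, a subunit of the inactivator of Rab3 (log2 -0.46 ± 0.11 SE), were lower. The call of Rab3-GAP was lost in DESeq2 (-0.39). The gene of the other subunit, listed as CG31935 (Rab3GAP1 in RefSeq), was not called (0.045), nor was the Rab3 activator gene Rab3-GEF (-0.17); both were chosen for mention after their values were seen.

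Among 36 tested effectors and tethers, 21 were higher and 4 lower (37.1% and 38.8% of all tested genes), with a median of 0.48. The Golgi tether gene Gmap averaged 983 ± 22.0 CPM in the IP and 104 ± 2.84 CPM in the input (SD, n = 2 each; log2 3.24 ± 0.12 SE, edgeR adjusted p = 3.80e-13). The Rab11 effector gene Rip11 was higher by 2.29 ± 0.11 SE, lt, a subunit of the lysosomal HOPS tether, by 2.02 ± 0.12 SE, and the golgin gene GCC185 by 1.84 ± 0.11 SE. The Golgi tether gene p115, a partner of Rab1, was lower (log2 -0.99 ± 0.13 SE), as were the exocyst subunit genes Sec5 (log2 -0.83 ± 0.17 SE) and Sec6 (log2 -0.46 ± 0.16 SE) and the endosomal tether gene Vps8 (log2 -0.51 ± 0.14 SE). Golgi tethers therefore included both the largest rise and the largest fall of this list. In DESeq2 neither Sec6 (-0.38) nor Vps8 (-0.45) was called. Sec6 also lost its call without PABP IP 2 (-0.38) or input 2 (-0.33), and Vps8 without input 1 (-0.31). Of the other exocyst subunit genes on the list, chosen for mention after their values were seen, Sec10 (1.34) and Sec15 (0.40) were higher and Sec8 (0.0066), Exo70 (0.28) and Exo84 (0.036) were not called. Scaled by library size only, 8 genes of the list were higher and 19 lower, beside 22.1% and 63.5% of all tested genes. The direction of the list's lean thus depends on the scaling, which moved all tested genes too. Of the 25 genes named in these lists 13 overlap or hold another gene, Rep, strat, ca, pcs, Ccz1, Evi5 and Gmap among them, and so share uncertain reads.

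**Figure D5:**
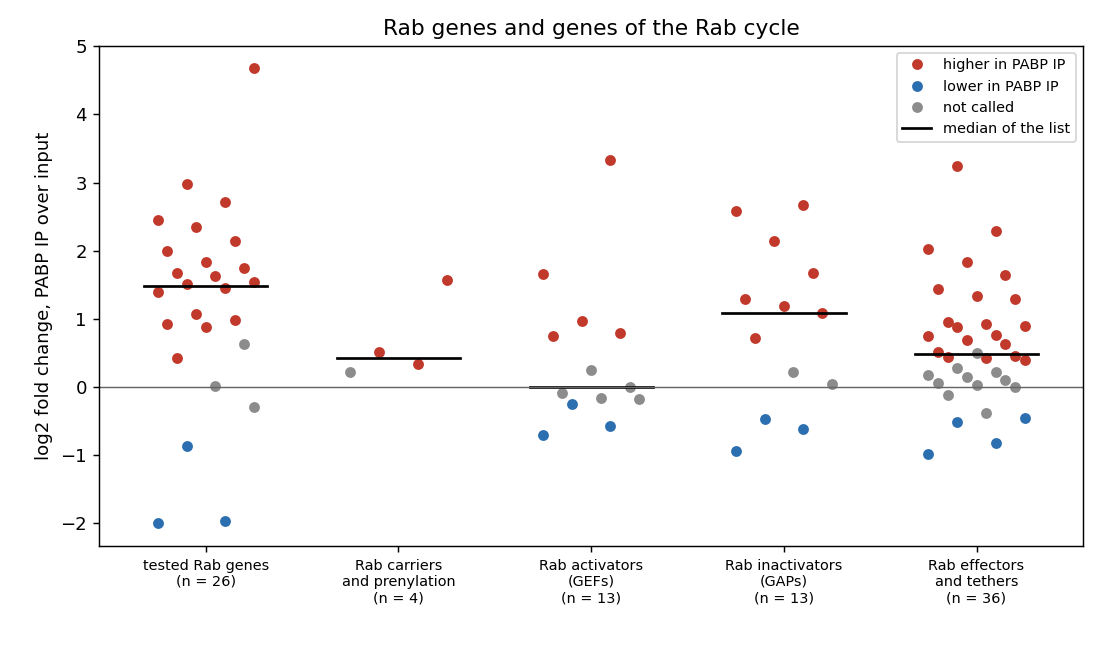
Log2 fold change of PABP IP over input (vertical axis) for the tested Rab genes and for tested genes of the 4 lists of the Rab cycle, one point per gene; sideways spread is only for legibility. Red is higher in the IP, blue lower, grey not called, and the black bar is the median of each list (1.49, 0.42, 0.0043, 1.09 and 0.48 from left to right). The highest points are RabX1 at 4.68, Crag at 3.33 and Gmap at 3.24.

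Gene length and input level were also set beside the change. Over the 26 tested members, which share the same 4 libraries, the log2 fold change had a Pearson r of -0.022 with log2 gene length and 0.19 with log2 input CPM, a measure that also enters the fold change (Spearman rho 0.16 and 0.33). Over all 9989 tested genes r was 0.29 with length and 0.082 with input CPM. The deposited length equalled the whole gene span for all 28 members. The genes lie on all major arms, 5 each on 2L, 2R, 3L and 3R and 8 on X, and 18 of the 28 overlap no other gene.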

How the data were processed

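The authors deposited whole-number read counts per gene. Per the submitters' processing notes, the tools included STAR 2.7.3a, featureCounts of Subread 2.0.0, cutadapt 2.9, SAMtools 1.10 and DESeq2; the genome build, the strand setting and the handling of duplicates were not given in the sources used here. Per the file headers, each gene also carries its length. The authors' deposited DESeq2 table holds log2 fold changes, a Wald score, p-values and a normalized signal, which equals the counts divided by 1 size factor per library.

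Counts were tested here with edgeR 4.0.16 in R 4.3.3 across all genes (filterByExpr with a minimum count of 10, TMM, glmQLFit and glmQLFTest, two-sided, Benjamini-Hochberg at 0.05), without a replicate block. Each SE was derived as log2 fold change divided by the root of F and can fall short of the counting error for low counts. For RabX5, with 2 input counts, an exact 95% interval of the ratio is given. A row without a gene name (at most 0.000418% of counts) was left out. Counts were simulated for the 9989 genes, with 1 common spread for every gene and 200 genes changed in either direction. Averaged over 5 runs, 48.8% of the genes changed 1.5 times and 81.6% of those changed 2 times were returned. At 4 times 96.4% and at 8 times 100% were returned, and 0.0715% of unchanged genes were called. The simulation held neither a spread particular to each gene nor the many changes of the data (3708 genes higher and 3873 lower). Its rates therefore do not measure the error of the calls made here. Both replicate pairs scattered more than counting alone gives, with a chi-square over its degrees of freedom of 7.93 for the IP and 2.85 for the input.

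The members, classes, lists and named genes were chosen with earlier results of these data known. All members are named, and from each list of the Rab cycle up to 4 genes with the lowest p in each direction, with Gdi, Rep, pAbp, esg, Dl, elav, nSyb and Syt1. Other markers and neighbouring genes were named after their values were seen. Uncharacterised identifiers of unsure role and names with no match were dropped from the lists, and the gene listed as CG7324 (Tbc1d8-9) was moved to the inactivators. RefSeq Release 6 plus ISO1 MT served for names and overlaps only, and no coordinates are printed. The alternatives tried were 4 other scalings (RLE, upper quartile, the authors' factors, none beyond library size), 2 other count filters, DESeq2 1.42.0, limma-voom 3.58.1, replicate number as a block, a bar of 1 on the log2 scale, a threshold of 0.01, and omission of each library in turn.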

Additional observations from a re-analysis of the deposited data

How the results depend on the processing

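Rab counts of 20 higher and 3 lower were unchanged with RLE factors, limma-voom and the replicate block (3660 higher and 3817 lower of all genes in the blocked fit, in which spri was the only named gene to lose its call). Leaving out 1 library gave a median log2 fold change of 1.39 to 1.59 for the Rabs, against -0.099 to -0.069 over all tested genes. In such fits an arm left with 1 library is assumed to vary like the other. Rabs called lower numbered 6 after scaling by library size only, and 5 each with the authors' and the upper-quartile factors. For all genes, library size alone gave 2209 higher and 6347 lower, and the test against a log2 fold change of 1 gave 2145 higher and 1584 lower. Same-numbered libraries deviated with r = -0.0897 over 9989 genes. With 1 difference per group this r cannot show whether they form pairs, and the labels do not say whether a number marks the same extract.

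Log2 fold changes that turned sign with upper-quartile factors, library size alone and the authors' factors were those of Rab19 (-0.60, -0.84, -0.48), Rab21 (-0.18, -0.42, -0.065), Gdi (-0.28, -0.52, -0.17) and Syt1 (-0.55, -0.79, -0.44). With the first 2 of these scalings CG12007 turned as well (-0.094, -0.34), and with library size alone Rab26 (-0.21) and ca (-0.057). Rab19 and Syt1 also turned with a minimum count of 30 (-0.078, -0.031) and in fits without 1 library (range -0.23 to 0.23 for Rab19, -0.19 to 0.30 for Syt1). List medians turned under the same 3 scalings for carriers and prenylation (-0.19, -0.43, -0.074), activators (-0.61, -0.85, -0.49) and effectors (-0.13, -0.38, -0.018), and that of activators with a minimum count of 30 (-0.090), in limma-voom (-0.0052) and in fits without 1 library (range -0.093 to 0.12). In the same order, these scalings put the median of all genes at -0.71, -0.95 and -0.59, and 31.0%, 25.8% and 33.8% of all calls were higher, against 48.9% with TMM. Of the other Rab values under all alternatives, 355 kept direction and call, 19 lost the call and 5 gained one. RabX5, RabX2, Rab26 and RabX4 had the fewest input counts, at most 24 each.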
